A study of Mus musculus with 2 samples.

Results

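Receptor and adaptor genes of myeloid cells were followed in murine chronic myeloid leukemia (CML) stem cells with and without STAP-1. They are 10 of the 23284 genes listed and were chosen by name: the TREM receptors Trem1, Trem2 and Trem3, the CD300 receptors Cd300a, Cd300lb and Cd300lf, the paired receptors Pilra, Cd200r1 and Cd200r3, and Tyrobp, which encodes the adaptor DAP12. The 10 genes, and the gene lists used below, were chosen with earlier results of these data known. The shares of all genes set beside counts are therefore a description. All 10 symbols were found in the data. By their known signalling, 5 are activating receptors (Trem1, Trem2, Trem3, Cd300lb and Cd200r3), 4 are inhibitory receptors (Cd300a, Cd300lf, Pilra and Cd200r1) and 1 is the adaptor.

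RNA-seq had been performed on CML LSCs of both genotypes, with 1 WT and 1 STAP-1 KO library (WT and KO below). Donor LSK cells (Lin-, Sca-1+, c-Kit high) of the C57BL/6J strain (CD45.2), either WT or from mice with a targeted disruption of the gene for the adaptor protein STAP-1, were transduced with a retrovirus that carries human p210 BCR-ABL and GFP. They were transplanted with helper bone marrow into lethally irradiated congenic C57BL/6SJL mice (CD45.1), and GFP+ CD45.2+ LSK cells were sorted at day 11. The study used adult mice, and both groups carried BCR-ABL, so that no library without the oncogene enters the comparison. BCR-ABL was expressed from a retroviral vector and not from its own locus. How many animals gave each library was not given in the sources used here.

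Paired receptors are closely related cell surface proteins, often encoded side by side, of which some activate and others restrain the cell. The activating forms have a short tail and signal through DAP12, whose ITAM tyrosines are phosphorylated by SRC family kinases and then recruit SYK. The inhibitory forms carry ITIM tyrosines that bind the phosphatases SHP-1, SHP-2 and SHIP-1, or, in the case of the CD200 receptor, recruit DOK proteins. In myeloid cells these receptors set the threshold for degranulation, phagocytosis and cytokine release.

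Values are FPKM, fragments per kilobase of transcript scaled to the mapped reads, which take transcript length into account, so that levels of different genes can be set side by side. With 1 library per genotype there was no replicate check, and every difference given here is between these 2 libraries. Intervals are 95% counting intervals from estimated reads and cover counting error only. The WT library corresponded to an effective depth of 7510000 reads and the KO library to 10490000. Stap1 itself was at 62.0 FPKM in the WT and at 0.309 FPKM in the KO library, as the labels state. The mast cell and basophil markers were the cell type list whose summed level differed most: 11 of the 12 were at least 2-fold lower in the KO library, against 22.9% of all genes at 0.1 FPKM or more in both (Mrgprb2 was at 0.357 and 0 FPKM), and their sum was 52270 FPKM in the WT and 5305 FPKM in the KO library, or 8.05% and 0.878% of all FPKM. In contrast, the sum of the 5 primary granule genes of early granulocyte progenitors was 564 FPKM in the WT and 4623 FPKM in the KO library, with 5 of 5 at least 2-fold higher, against 12.3% of all genes. Of the antigens used for sorting, Ly6a (Sca-1) was at 285 and 106 FPKM, Ptprc (CD45) at 107 and 38.2 FPKM, and Kit, which is also a mast cell marker, at 468 and 30.1 FPKM. In sorted populations measured in bulk, fewer cells of a type and less RNA per cell cannot be told apart.

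Of the 10 genes, 9 were at 0.1 FPKM or more in both libraries. Among these, 6 were at least 2-fold lower in the KO library, against 22.9% of the 12507 genes that met the same floor, and 2 were at least 2-fold higher, against 12.3%. The same 6 and 2 genes also differed by at least 4-fold, against a background of 8.56% for lower and 2.4% for higher genes. The 6 lower genes were the activating receptors Cd200r3 and Cd300lb, the inhibitory receptors Cd200r1, Cd300lf and Pilra, and the adaptor Tyrobp. The 2 higher genes were the activating receptors Trem1 and Trem3, and the inhibitory receptor Cd300a differed by less than 2-fold. Activating and inhibitory receptors were thus both found among the lower genes.

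**Figure D1:**
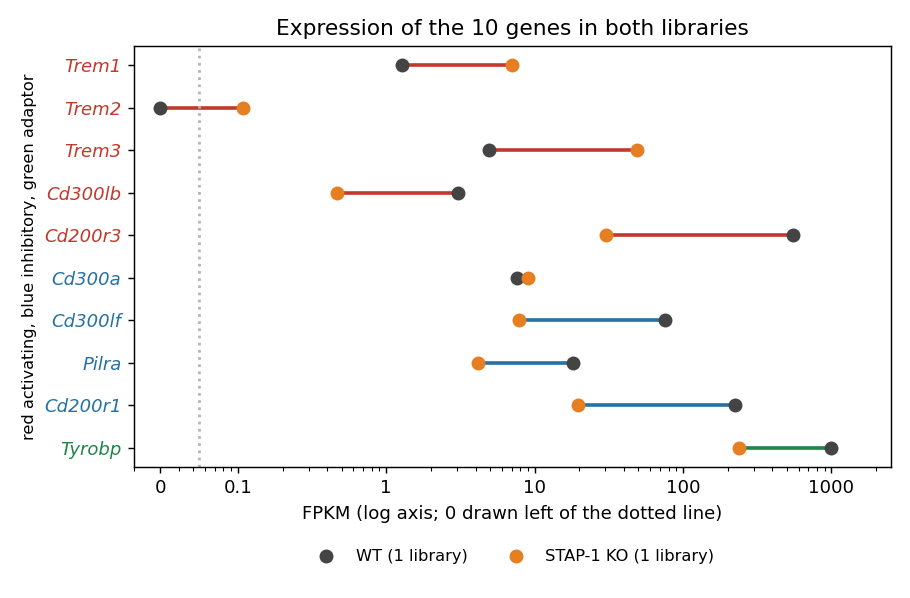
FPKM of the 10 genes (log axis) in the WT library (grey points) and the KO library (orange points), with lines coloured red for activating receptors, blue for inhibitory receptors and green for the adaptor. Tyrobp and Cd200r3 are the most abundant in WT at 992 and 549 FPKM, and Trem1, Trem3 and Cd300a, together with the barely detected Trem2, have the orange point to the right.

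The adaptor was the most abundant of the 10 in both libraries. Tyrobp (chr7:30413760-30417585, plus strand, GRCm38) was at 992 FPKM in the WT and at 238 FPKM in the KO library, from about 2890 and 964 reads. It was 4.17-fold lower (3.87 to 4.49) and passed from rank 58 to rank 414 among all genes. The Fc receptor gamma chain Fcer1g, the other ITAM adaptor of myeloid cells, was at 1472 and 354 FPKM, which is 4.15-fold lower. As a result the ratio of Tyrobp to Fcer1g was 0.674 in the WT and 0.672 in the KO library. Hcst encodes DAP10, an adaptor with a PI3K-binding motif, and its gene lies 126 bases from Tyrobp. Hcst was at 79.3 and 37.6 FPKM, 2.11-fold lower, so that the ratio of Tyrobp to Hcst was 12.5 in the WT and 6.34 in the KO library. Cd247, the zeta chain of the T cell receptor complex, was at 1.08 and 1.87 FPKM.

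Among the activating receptors, Cd200r3 differed the most. This receptor pairs with DAP12 and is known from mast cells and basophils. Cd200r3 (chr16:44943678-44981380, plus strand) was at 549 FPKM in the WT and at 30.3 FPKM in the KO library, from about 15122 and 1164 reads. It was 18.1-fold lower (17.1 to 19.3) and passed from rank 121 to rank 3578. Cd300lb (chr11:114922781-114934386, minus strand), which encodes CLM-7, another DAP12-coupled receptor, was far less abundant, at 3.05 and 0.465 FPKM. The difference was 6.55-fold, with a counting interval from -3.70 to -1.83 on the log2 scale, and rested on about 61 and 13 reads.

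Trem1 and Trem3 went in the opposite direction. Trem1 amplifies inflammatory responses of neutrophils and monocytes, and Trem3 is a related DAP12-coupled receptor. Trem1 (chr17:48232768-48246924, plus strand) was at 1.28 FPKM in the WT and at 7.05 FPKM in the KO library, from about 27 and 206 reads, and was 5.52-fold higher (3.65 to 8.50). Trem3 (chr17:48247777-48258841, plus strand), which starts 852 bases beyond the end of Trem1, was at 4.92 and 48.9 FPKM, from about 29 and 401 reads. It was 9.93-fold higher (6.80 to 15.0), and the ratio of Trem3 to Trem1 was 3.85 in the WT and 6.93 in the KO library. Trem2 (chr17:48346401-48354147, plus strand), the receptor for lipids and lipoproteins of microglia and tissue macrophages, was listed at 0 in the WT and at 0.109 FPKM in the KO library, the latter from about 1 read. Both values lie under the level of 3 reads, 0.454 FPKM in the WT and 0.326 FPKM in the KO library, so that a difference in Trem2 was not detectable at this depth.

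The inhibitory receptors were led by Cd200r1, the receptor for CD200. Cd200r1 (chr16:44765736-44794978, plus strand) was at 223 FPKM in the WT and at 19.5 FPKM in the KO library, from about 2815 and 343 reads, and was 11.4-fold lower (10.2 to 12.8). Its ligand Cd200 was at 0.187 and 0.134 FPKM in the sorted cells themselves. Cd300lf (chr11:115116214-115133992, minus strand), which encodes the phospholipid and ceramide receptor CLM-1, was at 75.4 and 7.91 FPKM, from about 949 and 139 reads. It was 9.54-fold lower (7.96 to 11.5). Pilra (chr5:137821952-137836281, minus strand), whose product binds sialylated glycoproteins, was at 18.2 and 4.14 FPKM and was 4.39-fold lower (3.50 to 5.52) on about 323 and 103 reads. For Pilra, 18.2% of the 75-base windows of its transcript also occur in Zcwpw1, Pilrb1 or Pilrb2, and its exons overlap those of Zcwpw1 on the other strand, which an unstranded library cannot tell apart, so that its value is uncertain. Cd300a (chr11:114890041-114904654, plus strand), an ITIM receptor for phosphatidylserine and phosphatidylethanolamine, stood apart from the other 3. It was at 7.58 FPKM in the WT and at 9.01 FPKM in the KO library, 1.19-fold higher (1.01 to 1.39), from about 253 and 419 reads.

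**Figure D2:**
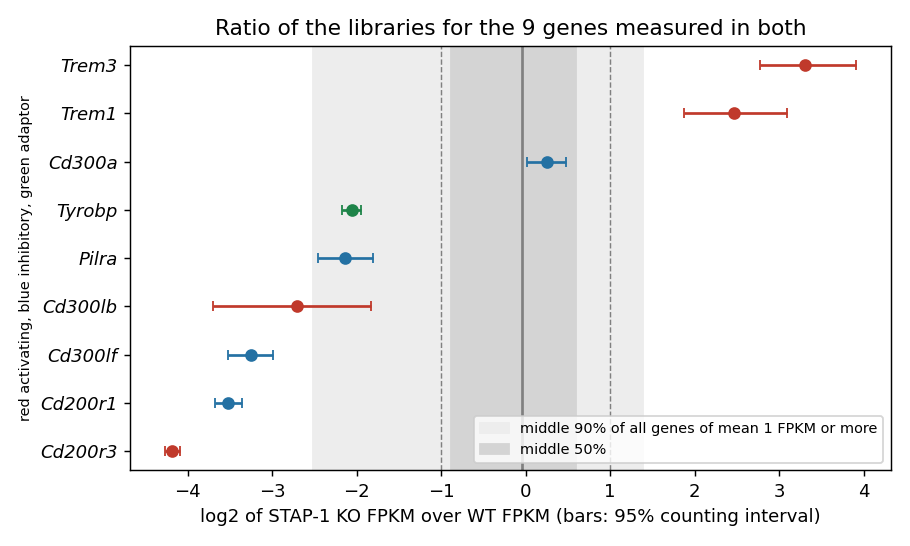
Log2 ratio of STAP-1 KO to WT FPKM for the 9 genes at 0.1 FPKM or more in both libraries, with 95% counting intervals, over shaded bands for the middle 50% and 90% of all genes averaging 1 FPKM or more (grey line: their median) and dashed lines at 2-fold (bands with 0.1 FPKM added, points without). Cd200r3, Cd200r1 and Cd300lf lie to the left of the 90% band, Cd300lb near its left edge, Trem1 and Trem3 to its right, and Pilra and Tyrobp inside its left part.

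For orientation, log2 ratios were computed after adding 0.1 FPKM to each value. The median over the 10974 genes averaging 1 FPKM or more was -0.04, and 90% of these genes lay between -2.52 and 1.39. The 4 inhibitory receptors had a median of -2.67. For the activating receptors no summary of this kind was informative, since 2 of the 4 averaging 1 FPKM or more were lower (Cd200r3 -4.18, Cd300lb -2.48) and 2 were higher (Trem1 2.38, Trem3 3.29), with a median of -0.05 that none of them was near. The values ran from -4.18 to 3.29 among the activating receptors and from -3.51 to 0.25 among the inhibitory receptors. Transcript length mattered for such ratios, as the shortest genes (up to 894 bases) had a median of 0.52 and the longest (7665 bases or more) of -1.01. After subtraction of the median of genes of like length, Tyrobp was at -2.58, Trem3 at 2.72 and Cd300a at 0.76.

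The make-up of the activating receptors therefore differed between the libraries. Their 5 values summed to 558 FPKM in the WT, of which Cd200r3 made up 98.3%, Trem3 0.881% and Trem1 0.229%. In the KO library the sum was 86.8 FPKM, 6.44-fold lower, with 56.3% from Trem3, 34.9% from Cd200r3 and 8.13% from Trem1. Without Cd200r3 the sum of the other activating receptors was 9.25 FPKM in the WT and 56.5 FPKM in the KO library, 6.11-fold higher. The 4 inhibitory receptors summed to 324 and 40.5 FPKM, 7.99-fold lower. Cd200r1 made up 68.8% of this sum in the WT and 48.0% in the KO library, Cd300lf 23.3% and 19.5%, Pilra 5.61% and 10.2%, and Cd300a 2.34% and 22.2%. Activating receptors thus accounted for 63.3% of the summed FPKM of the 9 receptors in the WT and for 68.2% in the KO library, with Cd200r3 as the main gene in WT and Trem3 in KO.

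**Figure D3:**
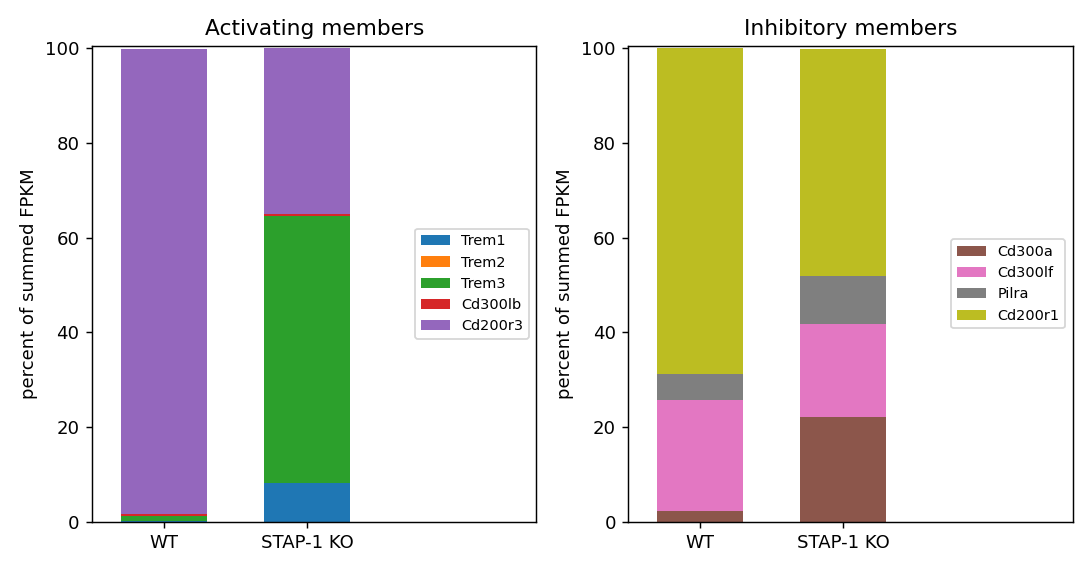
Percent of the summed FPKM that each receptor contributed to the 5 activating (left) and the 4 inhibitory receptors (right) in the WT and the KO library. Cd200r3 fills 98.3% of the activating bar in WT and 34.9% in STAP-1 KO, where Trem3 takes 56.3%, and Cd300a widens from 2.34% to 22.2% of the inhibitory bar.

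The mast cell and granule gene sums given above moved along with these receptors. Cd200r3, Cd200r1, Cd300lf, Cd300lb, Pilra and Tyrobp were lower in the library where the sum of mast cell markers was 9.85-fold lower, and Trem1 and Trem3 were higher in the library where the sum of primary granule genes was 8.20-fold higher. Among other myeloid markers, 3 of the 11 monocyte and macrophage markers at 0.1 FPKM or more in both libraries were at least 2-fold lower (Emr1, Cd68 and Ccr2) and 4 were at least 2-fold higher (Csf1r, Cd14, Lyz2 and Ly6c2), where the shares of all genes were 22.9% and 12.3%, with sums over the list of 235 and 247 FPKM. Of 9 such genes of mature neutrophils, 6 were at least 2-fold lower and Csf3r was higher, beside the same shares of 22.9% and 12.3%, with sums of 404 and 173 FPKM. The dendritic cell list summed to 91.1 FPKM in the WT and 253 FPKM in the KO library, with Bst2 higher (72.0 and 244 FPKM) and Itgax, Xcr1 and Clec9a at least 2-fold lower. The eosinophil list summed to 10.8 and 77.3 FPKM, with Prg2 (2.12 and 61.7 FPKM) and Epx higher and Ear2 2.48-fold lower, and the lymphoid list to 1.91 and 1.42 FPKM. Their part in the receptor differences was not tested.

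To see whether relatives of the 10 genes moved with them, the families were read in chromosomal order. In the CD200 receptor cluster, the DAP12-coupled Cd200r4 was at 354 FPKM in the WT and at 12.7 FPKM in the KO library, 27.8-fold lower, and thus exceeded Cd200r3 in the size of the difference. Cd200r2 was near 1 FPKM in both libraries (0.952 and 0.805). The 4 genes of the cluster together summed to 1127 and 63.3 FPKM. The activating Cd200r3 and Cd200r4 exceeded the inhibitory Cd200r1 in the WT, with ratios to Cd200r1 of 2.47 for Cd200r3 and 1.59 for Cd200r4, and in the KO library these ratios were 1.56 and 0.654.

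In the PILR cluster, the activating partners of Pilra were at 88.7 and 15.2 FPKM (Pilrb1, 5.84-fold lower) and at 25.9 and 3.82 FPKM (Pilrb2, 6.78-fold lower). All 3 genes were lower in the KO library, and the ratio of Pilrb1 to Pilra was 4.88 in the WT and 3.66 in the KO library. Of their 75-base windows, 15.2% for Pilrb1 and 13.1% for Pilrb2 also occur in another gene, so that how reads were divided among these genes is uncertain.

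Among the CD300 genes the picture was mixed, although they are neighbours. Cd300lf and Cd300lb were lower and Cd300a was not, while Cd300e and Cd300ld were below 0.3 FPKM in both libraries and Cd300c was listed at 0 in both. The ratio of the activating Cd300lb to the inhibitory Cd300a was 0.402 in the WT and 0.0516 in the KO library, whereas the ratio of Cd300lb to Cd300lf was 0.0404 and 0.0588.

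In the TREM cluster, the genes around Trem1 and Trem3 did not all go the same way. Treml4 was at 2.54 and 0.949 FPKM, 2.68-fold lower, and Treml2 was at 8.19 and 9.28 FPKM. Treml1, an ITIM receptor of platelets and megakaryocytes, was at 0.791 and 2.17 FPKM, 2.75-fold higher. The 3 TREM genes of the set summed to 6.20 FPKM in the WT and to 56.0 FPKM in the KO library, 9.04-fold higher.

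**Figure D4:**
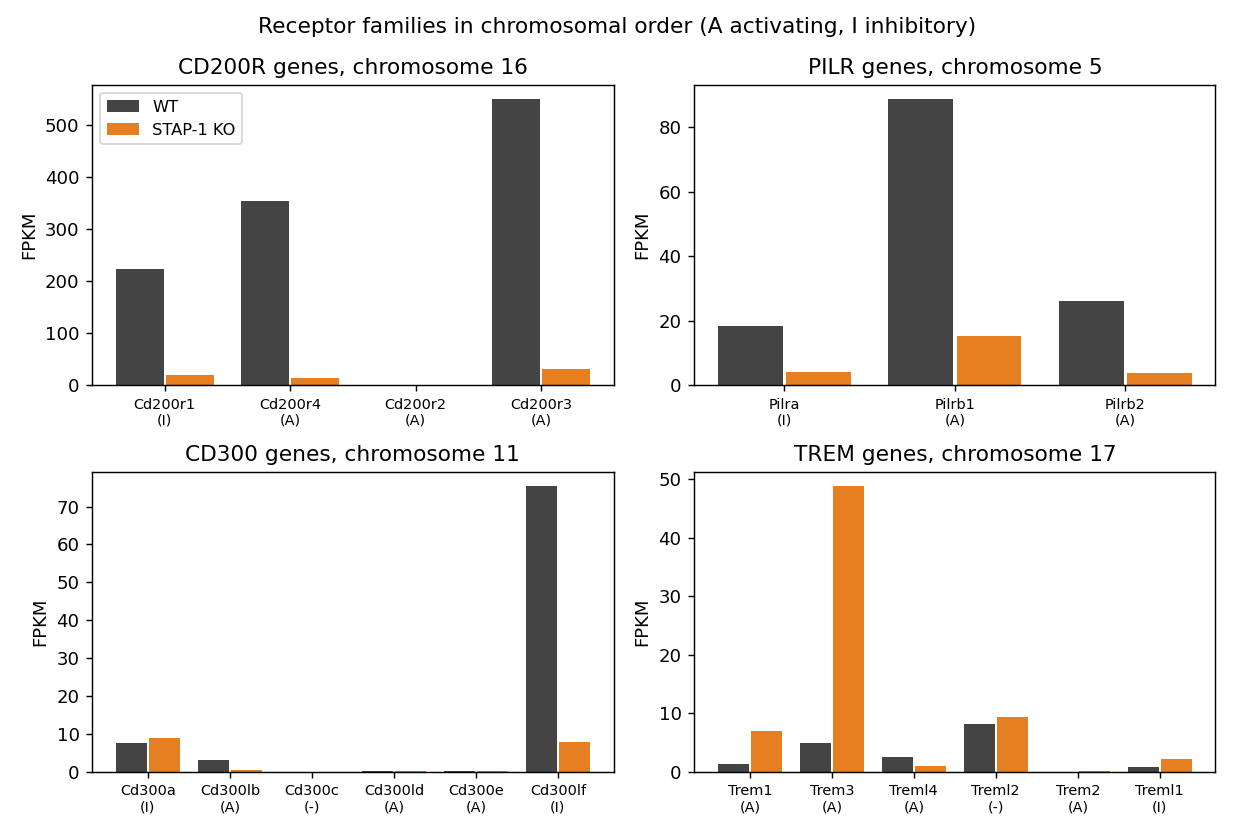
FPKM of the genes of 4 receptor families, in chromosomal order, in the WT library (grey bars) and the KO library (orange bars), with A for activating, I for inhibitory and a dash for genes not assigned to either. Cd200r1, Cd200r4 and Cd200r3 and the 3 PILR genes are all lower in STAP-1 KO, whereas Trem1 and Trem3 are higher, Treml4 is lower and Treml2 is about level.

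Promoter sequences were read for the 3 receptors that show the range of the differences: Cd200r3, the lowest ratio of the 10; Cd300lf, an inhibitory receptor that was lower; and Trem1, which was higher. Each is the 250 bases before and the first 30 bases from the annotated RefSeq start (GRCm38.p6), written 5′ to 3′ in the direction of the gene, with matches to known motifs of myeloid and mast cell transcription factors in capitals. The windows are chr16:44943428-44943707 (plus strand), chr11:115133963-115134242 (minus strand) and chr17:48232489-48232768 (plus strand).
Cd200r3: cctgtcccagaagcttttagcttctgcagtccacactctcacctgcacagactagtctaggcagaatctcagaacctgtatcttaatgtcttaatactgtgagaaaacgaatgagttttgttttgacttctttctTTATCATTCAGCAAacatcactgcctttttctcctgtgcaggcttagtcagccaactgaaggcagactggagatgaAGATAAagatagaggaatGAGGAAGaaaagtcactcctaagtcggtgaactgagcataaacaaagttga
Cd300lf: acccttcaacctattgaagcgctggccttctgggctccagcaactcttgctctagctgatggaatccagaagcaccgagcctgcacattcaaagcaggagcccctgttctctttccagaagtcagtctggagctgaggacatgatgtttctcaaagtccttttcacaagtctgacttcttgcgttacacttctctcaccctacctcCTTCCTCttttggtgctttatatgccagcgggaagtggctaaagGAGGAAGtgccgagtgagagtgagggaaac
Trem1: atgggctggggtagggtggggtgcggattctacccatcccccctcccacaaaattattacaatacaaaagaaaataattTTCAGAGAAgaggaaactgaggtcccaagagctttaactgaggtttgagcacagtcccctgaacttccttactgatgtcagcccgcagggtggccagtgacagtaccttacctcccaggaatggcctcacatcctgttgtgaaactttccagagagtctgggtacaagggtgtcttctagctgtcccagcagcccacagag

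The Cd200r3 window held the GATA motif AGATAA at -39 to -34 and the GATA motif TGATAA on the other strand at -115 to -110, counted from the start of the gene as 1. These letters occur on either strand in 10.7% and 8.69% of the 32851 promoter windows of the same length. It also held the PU.1 motif GAGGAAG at -21 to -15, which is found in 12.2% of windows, and the C/EBP motif TTGCNNAA at -109 to -102 on the other strand, found in 10.4%, next to the more distal GATA match without overlap. The Cd300lf window held GAGGAAG at -44 to -38 on the other strand and again at 1 to 7. The Trem1 window held the STAT motif TTCNNNGAA at -171 to -163, which reads the same on both strands and is found in 7.83% of windows. Of the 7 genes with a RefSeq promoter window, 5 held GAGGAAG (Trem2, Cd200r3, Cd300a, Cd300lf and Pilra), 4 held TTGCNNAA (Trem2, Cd200r3, Cd300a and Pilra), 2 held a GATA motif (Cd200r3 and Pilra) and 1 held the RUNX motif TGTGGT (Pilra, against 15.6% of windows). The E-box motifs CACGTG and CATGTG, found in 6.79% and 13.4% of windows, were in none of the 7, and the Cd300lb window held none of the motifs. Such matches are a description of the sequence and do not show binding.

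The transcription factors known to bind these motifs differed among themselves. Gata2, which is required for mast cells and basophils, was at 409 FPKM in the WT and at 55.2 FPKM in the KO library, 7.42-fold lower. Mitf, another mast cell factor, was at 12.7 and 0.878 FPKM, 14.4-fold lower. Cebpa, which drives granulocyte commitment, was at 0.768 and 4.36 FPKM (5.68-fold higher), and Cebpe, of later granulocytes, was at 1.17 and 3.99 FPKM (3.42-fold higher). Cebpb, of the same C/EBP family, was more abundant than Cebpa and Cebpe in both libraries, at 82.5 and 69.7 FPKM (1.18-fold lower). Gata1, another GATA factor, was at 187 and 96.1 FPKM (1.95-fold lower). PU.1, listed under its older symbol Sfpi1, was at 84.5 and 92.7 FPKM. Of the 9 factors examined, 3 were at least 2-fold lower and 2 were at least 2-fold higher, not far from the 22.9% and 12.3% of all genes.

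Other receptors known to pair with DAP12 were taken as a list of 16 genes, 9 of which were at 0.1 FPKM or more in both libraries. Of these, 5 were at least 2-fold lower in the KO library and 1 was at least 2-fold higher, against background shares of 22.9% and 12.3%. The higher one was Clec5a, a myeloid lectin, at 1.70 and 12.7 FPKM (7.50-fold higher). All 21 DAP12-coupled receptors, the 5 of the set included, summed to 1035 FPKM in the WT and to 135 FPKM in the KO library, 7.68-fold lower. Set against Tyrobp, this was 1.04 FPKM of receptor per FPKM of adaptor in the WT and 0.566 in the KO library. Cd200r3 and Cd200r4 together went from 0.910 to 0.181 per FPKM of Tyrobp, whereas the 3 TREM genes of the set went from 0.00625 to 0.235.

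Other inhibitory receptors with ITIM-like motifs were found in both directions. Of 24 such genes at 0.1 FPKM or more in both libraries, 9 were at least 2-fold lower and 6 were at least 2-fold higher, against 22.9% and 12.3% of all genes. The median log2 ratio of the 17 averaging 1 FPKM or more was -0.13, and it turned to 0.43 after the transcript length correction. Their sum over the list was 2736 FPKM in the WT and 441 FPKM in the KO library, 6.21-fold lower, and included 2391 and 185 FPKM from Lilrb4. Lilrb4 (gp49B), a receptor that restrains mast cell activation, was 12.9-fold lower. Lilrb3 (PIR-B) was at 90.5 and 7.01 FPKM, also 12.9-fold lower, and the sialic acid receptor Cd33 was at 31.1 and 2.01 FPKM, 15.5-fold lower. For Lilrb4 and Lilrb3, sequence shared with related genes was not examined. Cd72 was at 5.20 and 27.3 FPKM, 5.26-fold higher.

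**Figure D5:**
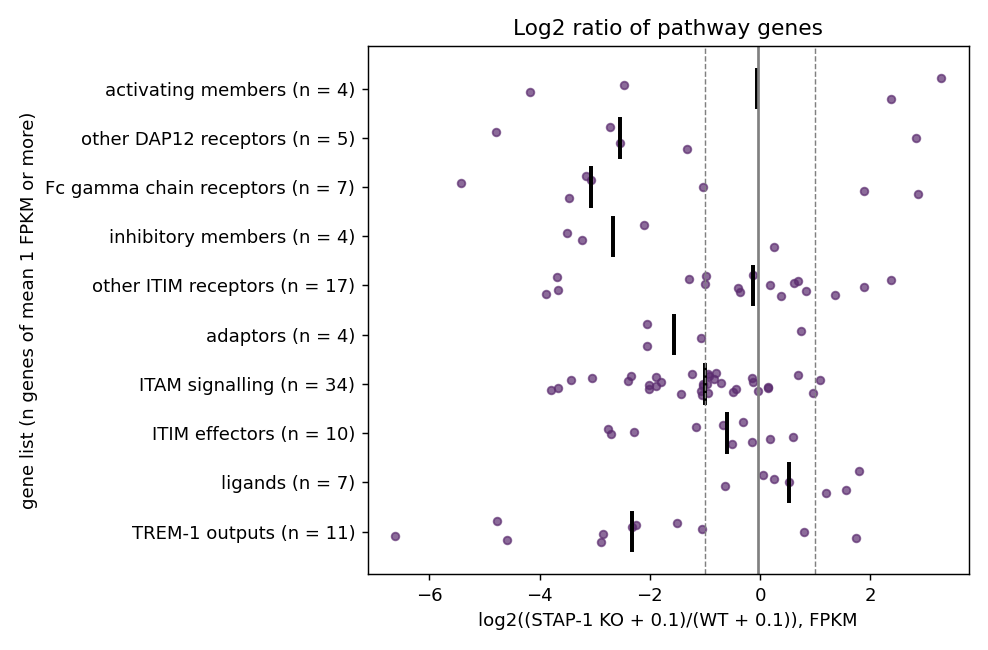
Log2 ratio of STAP-1 KO to WT (0.1 FPKM added) for each gene averaging 1 FPKM or more in 10 lists of receptors, adaptors, signalling genes, ligands and outputs, with the median as a black bar, the all-gene median as a grey line and 2-fold as dashed lines. The 4 inhibitory receptors of the set have a median of -2.67, against -0.13 for the 17 other ITIM receptors, and the activating receptors of the set are split with 2 genes on each side.

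Downstream of the receptors, the ITAM signalling genes were mostly lower. Of 34 kinases, adaptors and enzymes at 0.1 FPKM or more in both libraries, 18 were at least 2-fold lower and 1 was at least 2-fold higher (all genes: 22.9% and 12.3%), and the median log2 ratio was -0.999. The docking protein Gab2 was at 52.3 and 3.66 FPKM (14.3-fold lower) and the phospholipase Plcg1 at 34.2 and 4.02 FPKM (8.51-fold lower). Lat2, the linker NTAL of mast cells, was at 503 and 99.4 FPKM, and Zap70, a SYK family kinase, was at 8.59 and 0.581 FPKM. Syk itself was at 27.2 and 14.0 FPKM, 1.94-fold lower. The higher gene was Card9, which links SYK to NF-kB, at 1.33 and 2.93 FPKM.

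The effectors of inhibitory receptors were then examined. Of 10 such genes, 4 were at least 2-fold lower and 0 higher, beside 22.9% and 12.3% of all genes, with a median log2 ratio of -0.60. Inpp5d, the lipid phosphatase SHIP-1, was at 112 FPKM in the WT and at 16.4 FPKM in the KO library, 6.84-fold lower. Dok3 was at 59.9 and 12.1 FPKM, Dok1 at 17.5 and 7.72 FPKM, and Inppl1 (SHIP-2) at 1.85 and 0.200 FPKM. By comparison Ptpn6, which encodes SHP-1, was at 148 and 168 FPKM, and Dok2, a partner of the CD200 receptor, at 53.0 and 80.3 FPKM.

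Ligands proposed for these receptors and their relatives were next examined. Of 11 at 0.1 FPKM or more in both libraries, 4 were at least 2-fold higher and 2 at least 2-fold lower, where the shares over all genes were 12.3% and 22.9%. Pglyrp1, a granule protein and TREM-1 ligand, was at 12.97 and 45.5 FPKM (3.50-fold higher). The nuclear protein Hmgb1, reported to engage TREM-1, was at 42.8 and 98.1 FPKM (2.29-fold higher), and the lipoprotein Clu, a TREM-2 ligand, was at 4.09 and 12.2 FPKM. Npdc1, a ligand of the PILR receptors, was at 0.105 and 1.13 FPKM, whereas another PILR ligand, Pianp (listed as C530028O21Rik), was at 0.939 and 0.103 FPKM. The lower value of each lies just above the floor of 0.1 FPKM, so that both calls are uncertain. The other lower gene was Plxna1, a partner of TREM-2 and DAP12 in semaphorin signalling, at 1.15 and 0.455 FPKM.

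Cytokine and chemokine genes taken as outputs of TREM-1 signalling were mostly lower in KO, where Trem1 was higher. Of 11 such genes, 9 were at least 2-fold lower in the KO library and 1, Il10, was at least 2-fold higher (0.607 and 2.26 FPKM), against 22.9% and 12.3% of all genes, with a median log2 ratio of -2.33. Csf1, the macrophage growth factor, was at 369 FPKM in the WT and at 3.66 FPKM in the KO library. The monocyte chemoattractants Ccl7 and Ccl2 were at 122 and 4.37 FPKM and at 383 and 15.8 FPKM, and Il6 was at 384 and 52.1 FPKM. The sum of mast cell markers was 9.85-fold lower in the same library, and its part in these values was not tested.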

How the data were processed

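The authors deposited 1 table of FPKM values per library. Per the study's methods, SMART-Seq v4 cDNA in Nextera XT libraries was sequenced as 75-base single reads, mapped to mm10 with TopHat 2.0.13 and Bowtie2 2.2.3 and quantified with Cuffnorm 2.2.1. The annotation and the scaling used by Cuffnorm were not given in the sources used here, and the submitters' processing notes list SAMtools 0.1.19. Ratios were taken from these FPKM in Python 3.11.15 (pandas 2.3.3, numpy 2.4.6, scipy 1.17.1). A gene was counted as lower or higher where both libraries reached 0.1 FPKM and differed 2-fold or more. Log2 ratios used a pseudocount of 0.1 FPKM, which understates the change of low genes, and medians used genes averaging 1 FPKM or more. No p-value was computed, because each genotype had 1 library.

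Genes with 1 transcript in GENCODE M21 (GRCm38) served to estimate effective depth, since their low FPKM values fall on steps worth 1 read. At the depth found, 41.9% of 382 low values in the WT and 46.6% of 369 in the STAP-1 KO library lay within 0.01 read of a whole number, where 2% would by chance. Estimated reads used the longest coding transcript of each gene. Where shorter transcripts are expressed, true reads are fewer and the intervals too narrow. Their 95% intervals are exact conditional binomial (Clopper-Pearson) intervals, and the detection level is 3 reads. The scripts for counts and depth were tested on simulated data.

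The 10 genes and the gene lists were chosen with earlier results of these data known. Of 224 list symbols, 218 were found, 7 of them under another symbol. In each list up to 4 genes furthest from a log2 ratio of 0, with 1 FPKM added, were named, and cell type lists were given as sums with up to 3 genes. Family neighbours, Syk, Card9, Ptpn6, Dok2, Sfpi1, Cebpb, Gata1, Cd200, Pianp, Plxna1, Il10, Mrgprb2, Csf3r, the sorting antigens and the dendritic, eosinophil, monocyte and macrophage markers were named after their values had been seen. Alternatives changed the floor, fold cut-off, pseudocount, scaling and transcript length correction.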

Additional observations from a re-analysis of the deposited data

How the results depend on the processing

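The counts of 6 genes lower and 2 genes higher were the same in the 6 alternatives run for each (another floor, a cut-off of 4-fold, 3 other scalings and the transcript length correction). Of the 60 log2 ratios of single genes under alternatives, 51 moved within their counting interval, 9 moved beyond it and 0 changed sign. The 51 say little in part, since the Trem2 interval starts at -5.76 and has no upper bound. Also, median ratio scaling and scaling without mast cell markers shift log2 ratios by only 0.005 and -0.005. The median of the activating receptors, -0.05, lies between 2 lower and 2 higher genes and turned to 0.18 at a pseudocount of 1 FPKM and to 0.041 with trimmed mean scaling, which shifts all log2 ratios by 0.10. For the other ITIM receptors (-0.13) the median was -0.38 with a mean of at least 5 FPKM, -0.086 at a pseudocount of 1 FPKM and 0.43 after the transcript length correction, so that it has no stable direction. The same correction moved the median of the ITIM effectors from -0.60 to -0.36. The medians of the 4 inhibitory receptors and of the ITAM signalling genes stayed below 0 under each alternative run. The cause of these shifts was not tested. No paired analysis was possible because each genotype had 1 library. Depth limits Trem2, with 1 estimated read in all, and widens the intervals of Trem1, Trem3 and Cd300lb.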

Other observations

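Receptors that pair with the Fc receptor gamma chain showed both directions, as the DAP12-coupled receptors did. Of 8 at 0.1 FPKM or more in both libraries, 4 were at least 2-fold lower and 2 at least 2-fold higher in the KO library, beside 22.9% and 12.3% of all genes. Fcer1a, the IgE-binding chain of mast cells and basophils, was at 1828 FPKM in the WT and at 218 FPKM in the KO library, 8.39-fold lower, and it is also 1 of the 12 mast cell markers. The lectin Clec4n (Dectin-2) was at 10.5 and 0.864 FPKM, 12.2-fold lower, whereas the neighbouring lectin Clec4e (Mincle) was at 7.10 and 52.3 FPKM, 7.37-fold higher. Pira7 was at 4.27 FPKM in the WT and near 0 in the KO library. It belongs to a multigene family of closely related copies, and how reads were divided among them was not examined.

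Genes for the proteases that release TREM receptors from the cell surface, or cut the remaining stubs, were also examined. Of 8 sheddases and gamma-secretase subunits, 1 was at least 2-fold lower (Psen2, 86.8 and 33.6 FPKM) and 0 were higher, against 22.9% and 12.3% of all genes, with a median log2 ratio of -0.66. Adam10 was at 93.8 and 53.1 FPKM, 1.77-fold lower. Ncstn was at 102 and 52.2 FPKM, and Aph1b at 1.38 and 0.703 FPKM.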
